A study of Homo sapiens with 12 samples.

Results

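The plasminogen activation system was followed through 5 genes, PLAU, PLAT, PLAUR, SERPINE2 and SERPINB2, which were taken by symbol from tables of 27968 genes and all passed the filter on low counts that left 15304 genes for testing. The libraries came from 2 human cancer cell lines, A549 of the lung and MDA-MB-231 of the breast, with no treatment and no genetic change named in the labels. Each line was grown in 2D, as a flat layer in DMEM with 10% FBS sampled at about 80% confluence, and in 3D within Matrigel, an extract of basement membrane, in the same medium, sampled on day 4. There were 4 groups of 3 libraries, and the series asked which genes the extracellular matrix regulates in cancer cells. Nothing in the labels states that libraries of 1 group were made from separate cultures. The p-values therefore measure the spread between these libraries, which may be technical. The tests share 1 estimate of spread per gene over the 4 groups, so p-values and standard errors do not follow the spread of any 1 group.

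Plasminogen is an inactive precursor that circulates in blood and binds to cell surfaces, and its cleavage gives plasmin, a protease that digests fibrin and matrix proteins and activates growth factors. Urokinase, uPA, encoded by PLAU, makes plasmin at the cell surface while bound to its receptor uPAR, encoded by PLAUR, and tissue plasminogen activator, tPA, encoded by PLAT, does so mainly on fibrin. SERPINE2 encodes protease nexin-1 and SERPINB2 encodes PAI-2, serpins that trap the activators. Tumour cells use the system to move through matrix, and basement membrane extracts hold several of its substrates.

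The sequence just upstream of the start site is given for 3 members that changed within a line: PLAU, the member with the largest fall in A549, PLAUR, the member with the largest rise in MDA-MB-231, and SERPINB2, the member that fell in MDA-MB-231. The windows hold 250 bases before the start, are written 5′ to 3′ on the gene's strand, and come from RefSeq on GRCh38.p14, which is not the build of the count tables. Capitals mark matches to the AP-1 motif TGANTCA, the GC box GGGCGG, the TATA box TATAAA, the CCAAT box and the TEAD motif GGAATG, each searched on both strands.
PLAU, chr10:73910882-73911131, plus strand: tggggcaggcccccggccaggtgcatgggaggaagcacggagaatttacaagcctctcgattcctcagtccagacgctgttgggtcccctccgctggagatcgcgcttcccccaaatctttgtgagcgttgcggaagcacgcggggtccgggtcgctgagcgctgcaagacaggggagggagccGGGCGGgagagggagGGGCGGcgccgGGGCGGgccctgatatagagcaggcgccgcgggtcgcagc
PLAUR, chr19:43670170-43670419, minus strand: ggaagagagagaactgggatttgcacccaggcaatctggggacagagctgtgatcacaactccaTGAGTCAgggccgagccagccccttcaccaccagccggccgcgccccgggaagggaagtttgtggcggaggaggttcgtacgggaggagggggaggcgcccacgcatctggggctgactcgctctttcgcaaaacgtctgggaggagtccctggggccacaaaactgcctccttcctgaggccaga
SERPINB2, chr18:63887455-63887704, plus strand: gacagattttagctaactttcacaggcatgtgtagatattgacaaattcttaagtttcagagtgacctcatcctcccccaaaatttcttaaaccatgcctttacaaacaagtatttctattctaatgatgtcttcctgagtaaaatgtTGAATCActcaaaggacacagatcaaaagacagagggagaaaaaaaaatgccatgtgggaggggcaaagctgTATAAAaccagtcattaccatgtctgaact
The PLAU window held 3 GC boxes, at 66 to 61, 51 to 46 and 40 to 35 bases before the start. The PLAUR window held 1 match to the AP-1 motif, at 186 to 180 bases, and the SERPINB2 window held 1, at 102 to 96 bases, beside a TATA box at 30 to 25 bases. Of 35116 RefSeq windows of the same length, 42.6% held the GC box, 6.57% the AP-1 motif, 10.7% the TATA box, 32.0% the CCAAT box and 11.9% the TEAD motif. PLAU has another listed start, whose window held 1 match, a CCAAT box at 182 to 178 bases. PLAT and SERPINE2 also changed in A549. No window of PLAT is reported here, and its motif matches are not given. The windows of SERPINE2 are not printed. They held 8 and 2 matches, all to the CCAAT and GC boxes and none to the AP-1 motif. All these matches describe letters in the windows only.

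Library totals ranged from 5609327 to 28171901 expected counts, the widest range being that of A549 in 3D. In that group the biological coefficient of variation was 0.171, against 0.0363 to 0.0546 in the other groups. Because the tests pool the spread over groups, standard errors and p-values that involve A549 3D may be too small, and others too large. Ribosomal RNA took 3.59% to 16.6% of counts in A549 3D, against 0.320% to 0.497% in A549 2D. In MDA-MB-231 it took 1.49% to 1.53% in 2D and 4.75% to 7.30% in 3D. Mean fragment length was 133 to 140 bases in A549 3D against 175 to 186 in A549 2D, and 180 to 187 against 207 to 216 in MDA-MB-231. These measures move with the culture in both lines. Fragment length also differed between the lines in each culture, and the ribosomal RNA share in 2D, so comparisons between lines carry these differences too. Their part in the results below was not tested. The summed level of 8 A549 line markers was 17273 to 52114 CPM, counts scaled to a common library size, in A549 and 758 to 1567 in MDA-MB-231, and that of 7 MDA-MB-231 markers was 6382 to 9783 in MDA-MB-231 and 2197 to 3065 in A549. Not every marker followed its sum. By edgeR (adjusted p below 0.05), 6 of the 8 were called higher in A549 than in MDA-MB-231 in 2D and 2 lower. In 3D these were 6 and 1. Of the 7, 1 was called higher in A549 in 2D and 0 in 3D. KRT19, an A549 marker, stood at 43.1 CPM in A549 2D and 114 CPM in MDA-MB-231 2D. Of all genes, 42.8% were higher and 38.8% lower in A549 in 2D, and 43.9% and 39.2% in 3D. Defining genes of lung epithelium were nearly absent from A549, with 0.391 to 1.22 CPM over 5 genes and NKX2-1 and SFTPA1 at 0 in 2D.

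In A549 the messengers of both activators fell in Matrigel, PLAU the most, and SERPINE2 fell less. The receptor PLAUR differed by less than the spread between libraries, though it was called lower with some other scalings. SERPINB2 was at the limit of detection. Of the 5 genes, 3 were called lower and 0 higher by edgeR's quasi-likelihood test with an adjusted p below 0.05 over all genes, where 31.5% of all genes tested were called lower and 34.1% higher. In MDA-MB-231 the direction was different: PLAUR rose, and PLAU and PLAT were higher by a smaller amount that depends on how libraries are scaled. SERPINB2 fell, and SERPINE2 did not pass, though it too was called lower with some other scalings. There 3 of 5 were called higher and 1 lower, against 33.4% and 34.2% of all genes. Calls in either direction were common over all genes, 65.6% in A549 and 67.6% in MDA-MB-231. The median log2 fold change over the 5 genes was -0.75 in A549, where that of all genes was 0.03, and 0.38 in MDA-MB-231, where that of all genes was 0. In these bulk libraries, fewer cells that express a gene and less RNA per cell cannot be told apart.

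**Figure D1:**
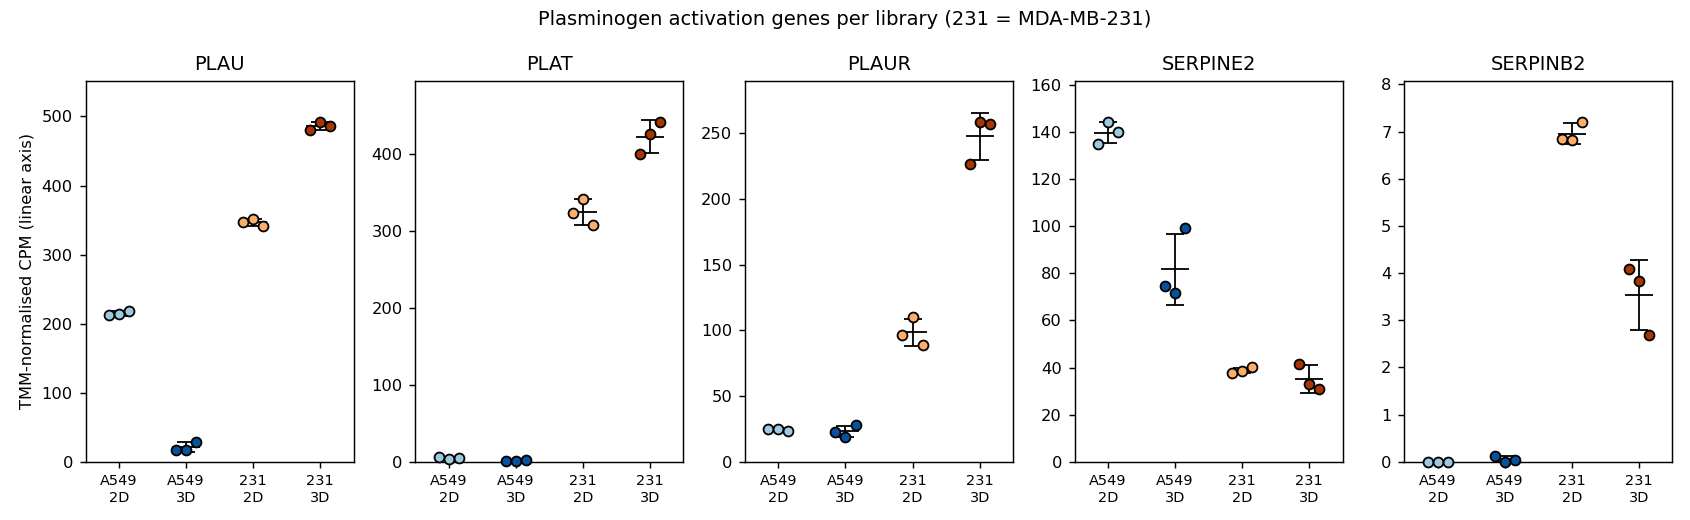
Level of each member in every library, as TMM-normalised CPM on linear axes that start at 0, with 3 points per group, a line at the group mean and whiskers of 1 SD. PLAU stands at 17.0 to 28.9 CPM in A549 3D, below the 212.3 to 218.5 of A549 2D, while PLAUR in MDA-MB-231 is at 88.8 to 109.8 in 2D and at 226.8 to 258.7 in 3D.

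PLAU, the urokinase gene, stood at 212.3, 213.6 and 218.5 CPM in the 3 libraries of A549 2D and at 17.0, 17.2 and 28.9 CPM in A549 3D. All 3D libraries lay far below all 2D libraries, and the third 3D library was the highest of its group. The mean went from 214.8 ± 3.25 to 21.1 ± 6.81 CPM (SD, n = 3). The fitted log2 change, which is not the ratio of these means, was -3.27 ± 0.15 (SE, edgeR adjusted p = 4.19e-11), or 9.63-fold lower. Leaving out each library of the comparison in turn gave -3.65 to -3.14. Only 0.751% of all genes tested had a fall in A549 as large.

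In MDA-MB-231, PLAU was at 347.5, 351.0 and 341.2 CPM in 2D and at 479.9, 492.2 and 486.5 CPM in 3D, so that each 3D library lay above each 2D library. The rise from 346.6 ± 4.94 to 486.2 ± 6.18 CPM (SD, n = 3) was a fitted log2 change of 0.49 ± 0.12 (edgeR adjusted p = 0.00248). This call was lost with libraries scaled to their total count, where the log2 fold change was 0.25 (edgeR adjusted p = 0.117), and on deposited TPM, which is scaled to transcript length and library total, where it was 0.07 on the log2(TPM + 1) scale (limma adjusted p = 0.77). With these scalings the median of all genes was -0.22 and -0.25 rather than 0. The change of PLAU in A549 was lower than that in MDA-MB-231 by 3.76 on the log2 scale, fitted as -3.76 ± 0.19 (edgeR adjusted p = 5.8e-10).

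An open reading frame gene on the opposite strand, C10orf55, overlaps PLAU in GENCODE v29. Its count was 0 to 7.2 in A549 3D and 26.0 to 62.9 in the MDA-MB-231 libraries, and it never exceeded 1.19% of the PLAU count. The strand setting of the counting is not given in the sources used here. The fractions of both counts add to whole numbers, as with 3841.28 and 35.72 in A549 2D replicate 1. The counting thus split reads between these genes. Reads of the pair cannot be told apart, and the 1.19% is an allocation, not a limit on reads from the opposite strand.

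PLAT, the tissue activator gene, was scarce in A549, at 5.53, 3.93 and 4.61 CPM in 2D and 1.25, 0.977 and 1.97 CPM in 3D. The groups did not overlap. The mean fell from 4.69 ± 0.800 to 1.40 ± 0.514 CPM (SD, n = 3), a fitted log2 change of -1.50 ± 0.20 (edgeR adjusted p = 9.23e-06), with only 5 to 50 counts per library in 3D. With each library left out in turn the fitted change was -2.03 to -1.38. In MDA-MB-231, PLAT was an abundant messenger, at 323.9, 341.7 and 307.6 CPM in 2D and 400.1, 426.5 and 442.0 CPM in 3D. All 3D libraries were higher, with a fitted log2 change of 0.38 ± 0.10 (edgeR adjusted p = 0.00214). Like that of PLAU, this rise was lost with total count scaling, at 0.15 (edgeR adjusted p = 0.238), and on log2(TPM + 1) the sign turned, at -0.03 (limma adjusted p = 0.816). The changes of the 2 lines differed by -1.88 ± 0.22 (A549 minus MDA-MB-231, edgeR adjusted p = 4.09e-06).

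PLAUR, the gene of the receptor that holds urokinase at the cell surface, stood at 25.0, 25.1 and 23.8 CPM in A549 2D and 22.4, 19.1 and 27.8 CPM in A549 3D. The 3D libraries spread around the 2D values and overlapped them. The log2 fold change was -0.04 ± 0.12 (edgeR adjusted p = 0.8), and on log2(TPM + 1), where the median of all genes was -0.38, PLAUR was called lower at -0.67 (limma adjusted p = 7.63e-04). In MDA-MB-231 the values were 96.4, 109.8 and 88.8 CPM in 2D and 226.8, 258.7 and 257.4 CPM in 3D. Every 3D library lay more than 100 CPM above every 2D library, and the rise from 98.4 ± 10.6 to 247.6 ± 18.1 CPM (SD, n = 3) was 2.52-fold, or 1.33 ± 0.11 on the log2 scale (edgeR adjusted p = 3.42e-08). It passed under each of 13 alternatives, with log2 fold changes from 0.90 to 1.37. The difference between the lines was -1.37 ± 0.16 (edgeR adjusted p = 3.75e-06).

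SERPINE2, the gene of protease nexin-1, was at 135.2, 144.4 and 139.9 CPM in A549 2D and 74.7, 71.5 and 99.1 CPM in A549 3D. All 3D libraries were below all 2D libraries. The fall from 139.8 ± 4.61 to 81.8 ± 15.1 CPM (SD, n = 3) was a fitted log2 change of -0.75 ± 0.12 (edgeR adjusted p = 4.51e-05). In MDA-MB-231, SERPINE2 was at 37.7, 38.5 and 40.1 CPM in 2D and 41.7, 33.1 and 30.7 CPM in 3D, with groups that overlapped. The log2 fold change of -0.15 ± 0.12 did not pass (edgeR adjusted p = 0.303), while on log2(TPM + 1) it was -0.56 (limma adjusted p = 0.00536). The difference between the lines was -0.61 ± 0.17 (edgeR adjusted p = 0.00709).

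SERPINB2, the gene of PAI-2, had 0 counts in each A549 2D library and 1, 0 and 1 counts in A549 3D. A count of 0 over the 3 libraries of A549 2D allows up to 0.0549 CPM, the value of 3 counts over the group, and no fold is given within this line. In MDA-MB-231, SERPINB2 was at 6.84, 6.82 and 7.21 CPM in 2D and 4.09, 3.83 and 2.68 CPM in 3D. The groups did not overlap, and the log2 fold change was -0.99 ± 0.18 (edgeR adjusted p = 2.3e-04), from 479 counts in all in 2D and 168 in 3D. The test of the difference between the lines gave an edgeR adjusted p of 0.0377, which rests on 0 and 2 counts in A549 and was lost without the filter on low counts (adjusted p = 0.0521). It was also lost without any of the 3 libraries of A549 2D and without the first or the third library of A549 3D, with adjusted p-values of 0.0704 to 0.129. Floors and intervals cover counting error only, since reads of these libraries are not independent molecules.

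**Figure D2:**
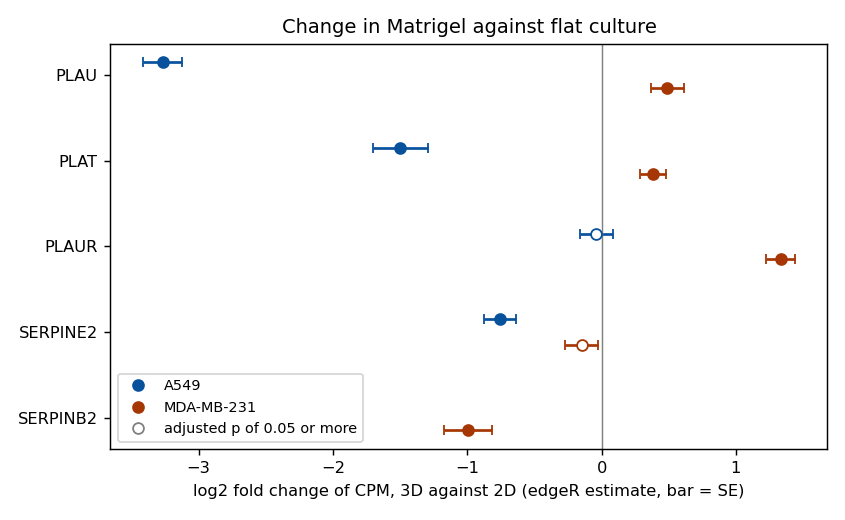
Log2 fold change of CPM in 3D against 2D for each member and line, with the edgeR standard error as the bar, filled points passing an adjusted p of 0.05 and open points not. PLAU in A549 lies farthest from 0, at -3.27, PLAUR in MDA-MB-231 farthest to the right, at 1.33, and SERPINB2 is shown for MDA-MB-231 only because A549 had 0 and 2 counts.

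Over all 5 genes, the test of the difference between the lines passed for 4 in the lower direction, PLAU, PLAT, PLAUR and SERPINE2. It also passed for SERPINB2 in the higher, a call that rests on the few A549 counts given above. Of all genes, 26.7% were called lower and 29.3% higher, 56.1% in all. For the first 4 genes the test passed under each of 12 alternatives, with the smallest margin for SERPINE2, whose adjusted p reached 0.0379.

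The lines also differed in level within each culture. MDA-MB-231 held more PLAU, PLAT, PLAUR and SERPINB2, and A549 held more SERPINE2. In 2D the calls were 4 lower and 1 higher in A549, against 38.8% and 42.8% of all genes, and 81.6% of all genes differed between the lines in 1 direction or the other. In 3D the calls were again 4 lower and 1 higher, against 39.2% and 43.9%, and 83% of all genes differed.

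The gap was widest for PLAT, at -6.11 ± 0.13 on the log2 scale in 2D (edgeR adjusted p = 1.63e-15) and -7.99 ± 0.16 in 3D (edgeR adjusted p = 7.43e-16), where MDA-MB-231 was 69.1-fold and 255-fold higher. For PLAU it was -0.69 ± 0.12 in 2D (edgeR adjusted p = 9.64e-05) and -4.45 ± 0.15 in 3D (edgeR adjusted p = 2.63e-13). Urokinase messenger was therefore 1.61-fold higher in MDA-MB-231 in flat culture and 21.8-fold higher in Matrigel. Both sizes depend on the processing: over 13 alternatives the log2 difference of PLAU passed each time but ran from -1.49 to -0.66 in 2D and from -5.52 to -4.39 in 3D. For PLAUR the log2 differences were -2.00 ± 0.11 and -3.37 ± 0.12 (edgeR adjusted p = 1.45e-10 and 5.61e-13), a level 3.99-fold and 10.3-fold higher in MDA-MB-231, with alternatives from -2.77 to -1.97 and from -4.37 to -3.31. Those of PLAT ran from -6.85 to -5.93 and from -8.85 to -7.07.

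SERPINE2 was 3.61-fold higher in A549 in 2D and 2.37-fold higher in 3D (edgeR adjusted p = 8.21e-10 and 1.42e-07), the log2 difference in 2D passing under each alternative at 1.03 to 1.88, and in 3D the call was lost on log2(TPM + 1), at 0.26 (limma adjusted p = 0.117). SERPINB2 had 479 counts in MDA-MB-231 2D against 0 in A549 2D, a level at least 102.7-fold higher by the exact 95% lower limit for counting error, and 126.8-fold higher with the A549 group set to a floor of 3 counts (edgeR adjusted p = 2.06e-10). In 3D it was 66.5-fold higher from 168 against 2 counts, with an exact 95% interval of 18.1 to 553.4 for counting error (edgeR adjusted p = 2.75e-08).

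Placed in order of CPM, PLAU and PLAT each ran upward from A549 3D through A549 2D and MDA-MB-231 2D to MDA-MB-231 3D, and each neighbouring pair differed by the test. The last step, from MDA-MB-231 2D to 3D, kept its call under 9 of 13 alternatives for each of these genes. For PLAUR the order was the same, but the 2 A549 groups did not differ beyond their spread. For SERPINE2 the order ran from the MDA-MB-231 groups, which overlapped, to A549 3D and then A549 2D, where the step between the lines across cultures was not tested. The SERPINB2 order ran from A549, at or near 0, to MDA-MB-231 3D and then MDA-MB-231 2D.

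Levels of different genes were compared per transcript length, on TPM within a library. In A549 2D the order from high to low was PLAU, SERPINE2, PLAUR, PLAT and SERPINB2 in each library, with mean TPM of 125, 86.7, 23.8, 1.99 and 0. In A549 3D SERPINE2 led, at 34.5, with PLAUR at 14.9 and PLAU at 8.35, and this order too held in each of the 3 libraries. Urokinase thus passed from the first to the third of the 5 messengers. In MDA-MB-231 2D the order was PLAU at 352, PLAT at 238, PLAUR at 163, SERPINE2 at 41.9 and SERPINB2 at 9.01, and in 3D PLAUR at 304 stood above PLAT at 233, below PLAU at 369. TPM is not set side by side across groups here because structural RNA genes took 43.7% to 53.1% of it in A549 3D, 32.8% to 34.8% in A549 2D and 1.19% to 4.83% in MDA-MB-231.

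**Figure D3:**
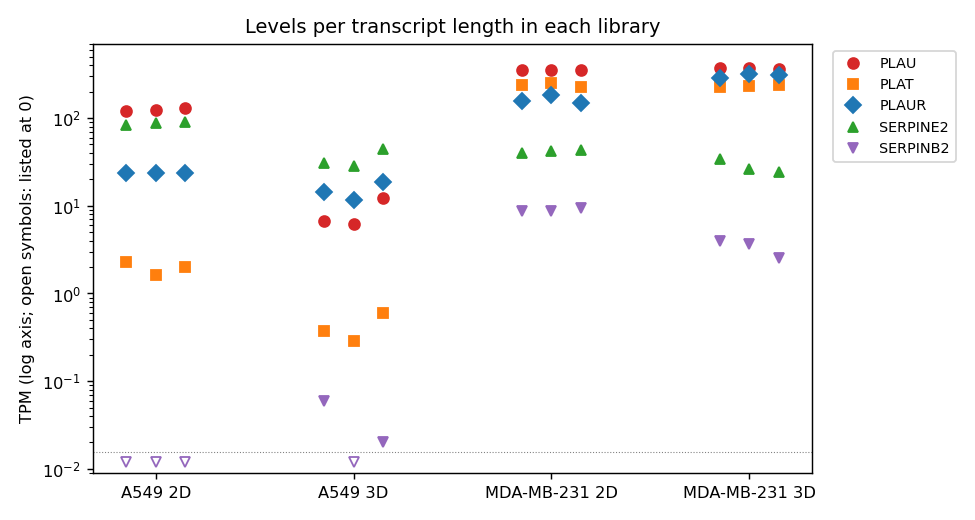
TPM of the 5 genes in each library, on a log axis, with open symbols for genes listed at 0. Within each group the 3 libraries keep 1 order: PLAU is on top in A549 2D and in both MDA-MB-231 groups, and SERPINE2 is on top in A549 3D.

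PLAT made up 1.31% to 1.86% of the summed TPM of the 2 activator genes in A549 2D and 4.42% to 5.28% in A549 3D. In MDA-MB-231 its share was 39.5% to 41.3% in 2D and 37.7% to 39.7% in 3D. Both activators were thus abundant messengers in MDA-MB-231, while nearly all activator messenger in A549 was PLAU.

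Ratios between members within a library do not depend on how libraries are scaled. The ratio of PLAU to PLAUR, activator to receptor, was 5.12 to 5.54 in A549 2D and 0.466 to 0.645 in A549 3D, a mean log2 change of -3.27. In MDA-MB-231 the same ratio was 1.96 to 2.35 in 2D and 1.17 to 1.31 in 3D, a change of -0.83, so that the receptor messenger gained on the activator messenger in both lines. The ratio of PLAU to SERPINE2, activator to inhibitor, was 1.39 to 1.48 in 2D and 0.214 to 0.275 in 3D in A549, a change of -2.62. In MDA-MB-231 it was 8.03 to 8.69 in 2D and 10.9 to 14.9 in 3D, a change of 0.65. The activator messenger thus stood lower against the inhibitor messenger in Matrigel in A549 and higher in MDA-MB-231, with no overlap of libraries in either line. The ratio of PLAU to PLAT was 52.8 to 75.1 in 2D and 17.9 to 21.6 in 3D in A549, a change of -1.68, and overlapped between cultures in MDA-MB-231, at 1.42 to 1.53 against 1.52 to 1.65. The ratio of PLAU to SERPINB2 in MDA-MB-231 was 37.3 to 40.3 in 2D and 93.3 to 142 in 3D, a change of 1.49. With 3 libraries against 3 the exact two-sided permutation test cannot go below p = 0.1, which 6 of the 7 ratio tests reached (adjusted 0.117), and PLAU to PLAT in MDA-MB-231 gave p = 0.2.

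**Figure D4:**
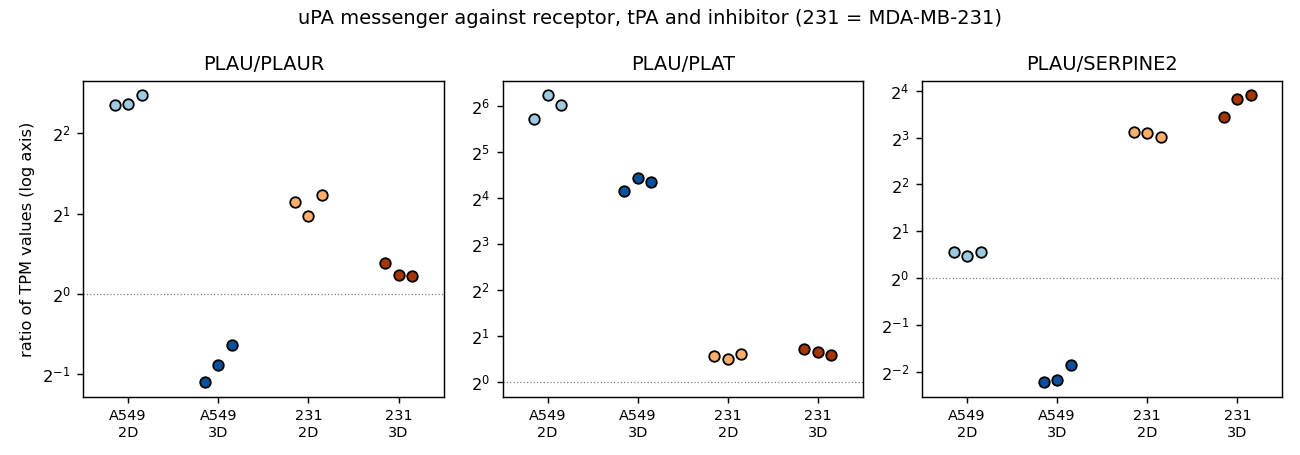
Ratio of the TPM of PLAU to that of PLAUR, PLAT and SERPINE2 in each library, on log axes, with a dotted line at a ratio of 1. In A549 the ratios to PLAUR and SERPINE2 cross from above 1 in 2D to below 1 in 3D, and in MDA-MB-231 all ratios stay above 1.

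The profiles of other genes were set beside those of the members by the root mean square difference in log2 CPM over the 12 libraries, after centring each gene, among 10277 candidates (10278 for SERPINB2). Nearest to PLAU was JUN, a subunit of the transcription factor AP-1, at 0.26, where the median over the candidates was 1.83. The mean of JUN in A549 was 45.4 CPM in flat culture and 3.80 CPM in Matrigel, and in MDA-MB-231 it was 91.1 and 107.8 CPM. SAMD4A and GALNT6 followed, at 0.35 and 0.46.

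Nearest to PLAT were MAPK13, a p38 kinase, at 0.27, FOSL1, another AP-1 subunit, at 0.32 and GGT5 at 0.34, against a median of 3.63. FOSL1 stood at 6.03 and 2.11 CPM in A549 2D and 3D and at 314 and 416 CPM in MDA-MB-231. Nearest to PLAUR were TRIM8 at 0.13, KLHDC3 at 0.14 and HOXB9 at 0.20, and nearest to SERPINE2 were USP31 at 0.09, FBF1 at 0.14 and GRK3 at 0.15. Nearest to SERPINB2 were APBB1IP at 0.32, ANKRD1 at 0.38 and TCEA3 at 0.39. These are descriptions over 12 libraries that share 4 group means. Among the members themselves the closest pair was PLAU and PLAUR, at 1.20, and the farthest PLAT and SERPINE2, at 4.35.

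Other genes of the pathway were described from 4 lists with 38 genes in all, of which 29 were tested. In A549, 17 of the 29 were called higher and 7 lower, against 34.1% and 31.5% of all genes, and in MDA-MB-231 16 were called higher and 3 lower, against 33.4% and 34.2%. In A549 the split was again 17 and 7 under RLE and upper-quartile scaling, 12 higher and 8 lower with total count scaling, 15 and 8 on TPM rescaled without structural RNA genes, and 6 and 12 by limma on log2(TPM + 1). In MDA-MB-231 it was 16 and 3 under RLE, 15 and 5 with total count scaling, 12 and 5 on rescaled TPM, and 11 and 7 on log2(TPM + 1).

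Of 8 other inhibitors in the list, 5 were tested, with 5 higher and 0 lower in A549, against 34.1% and 31.5% of all genes. In MDA-MB-231 1 was higher and 1 lower, against 33.4% and 34.2%. The median log2 fold changes in A549 and MDA-MB-231 were 3.28 and 0.02, the former being the fitted value of SERPING1, which had 2 counts in A549 2D. With other scalings fewer were called higher in A549, 2 on log2(TPM + 1) and 3 with total count scaling. SERPINI1, the gene of neuroserpin, an inhibitor of tPA, rose in A549 from 1.21 to 12.5 CPM and fell in MDA-MB-231 from 7.76 to 5.41 CPM, log2 fold changes of 3.36 and -0.53. SERPINA5, the gene of the protein C inhibitor, rose in A549 from 0.162 to 6.48 CPM, and in MDA-MB-231 stood at 0.250 and 0.284 CPM (edgeR adjusted p = 1). SERPINB6, a cytoplasmic serpin, rose in both lines, by 0.47 and 0.59, although on log2(TPM + 1) the sign turned in A549 and the call was lost in MDA-MB-231 (limma adjusted p = 0.08), and with total count scaling the call in A549 was lost (edgeR adjusted p = 0.092). SERPING1, the gene of the C1 inhibitor, rested in A549 on 16 counts over the 3D libraries against 2 over the 2D libraries, which overlapped, and its call in A549 (edgeR adjusted p = 0.00354) was lost on log2(TPM + 1) (limma adjusted p = 0.0804). It stood at 1.09 and 0.974 CPM in MDA-MB-231 (edgeR adjusted p = 0.756).

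Among plasminogen and 4 genes of proteins that bind it at the cell surface, 0 were called lower in either line. Of all genes, 31.5% were lower in A549 and 34.2% in MDA-MB-231. In each line 2 were called higher, against 34.1% and 33.4% of all genes. These were S100A10, with log2 fold changes of 0.61 in A549 and 0.73 in MDA-MB-231, and ENO1, alpha-enolase, with 0.35 and 1.16, and neither was called higher in A549 on log2(TPM + 1), where S100A10 was at 0.0084 (limma adjusted p = 0.94) and ENO1 turned to -0.22. With total count scaling ENO1 in A549 was not called either (edgeR adjusted p = 0.559). ANXA2, the partner of S100A10, stood at 4039 and 4370 CPM in A549 and 2916 and 2573 CPM in MDA-MB-231 and did not pass in A549 (edgeR adjusted p = 0.222) or in MDA-MB-231 (edgeR adjusted p = 0.0567). In MDA-MB-231, however, ANXA2 was called lower under 9 of 13 alternatives, with log2 fold changes down to -0.62, and in A549 it was called higher by DESeq2 (0.15) and lower on log2(TPM + 1) (-0.47). PLGRKT, a plasminogen receptor, stood at 15.2 and 14.0 CPM in A549 and 8.81 and 10.2 CPM in MDA-MB-231, and passed in neither line, though in A549 it was called lower with total count scaling (-0.42, edgeR adjusted p = 0.00771) and on each of 3 TPM scales (-0.73 to -0.33). PLG itself, which the liver makes, was at 0.679 and 0.554 CPM in A549 and at 0.0426 and 0.0828 CPM in MDA-MB-231.

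All 15 genes of uPAR partners and clearance receptors were tested, with 8 higher and 7 lower in A549 and 10 higher and 2 lower in MDA-MB-231, and medians of 0.43 and 0.64. Of all genes, 34.1% were higher and 31.5% lower in A549, and 33.4% and 34.2% in MDA-MB-231. VTN, the gene of vitronectin, a matrix protein that uPAR binds, rose in A549 from 4.38 ± 0.445 to 146.5 ± 33.5 CPM (SD, n = 3), a fitted log2 change of 5.08 ± 0.18 (edgeR adjusted p = 4.06e-12), and was at or near 0 in MDA-MB-231. SRPX2, another ligand of uPAR, rose in both lines, by 2.95 and 1.01 on the log2 scale. ITGA5, a subunit of the fibronectin receptor, fell in A549 by 0.66 and rose in MDA-MB-231 by 1.20. SORL1, a receptor that takes up urokinase and its complexes, rose in both, by 1.40 and 1.56.

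Of 10 other proteases that can activate plasminogen or the urokinase precursor, 4 were tested, with 2 higher in A549, 3 in MDA-MB-231 and 0 lower in either. The shares of all genes were 34.1% higher and 31.5% lower in A549, and 33.4% and 34.2% in MDA-MB-231. CTSB, cathepsin B, rose by 0.63 and 1.08 on the log2 scale, the former call being lost on log2(TPM + 1), at 0.058 (limma adjusted p = 0.715), and F12, coagulation factor XII, by 1.10 and 1.27, the latter from 0.523 to 1.24 CPM in MDA-MB-231. CTSL, cathepsin L, stood at 336 and 361 CPM in A549 (edgeR adjusted p = 0.484) and rose in MDA-MB-231 by 0.56, a call lost with total count scaling (edgeR adjusted p = 0.0656) and on log2(TPM + 1) (limma adjusted p = 0.511). ST14, matriptase, stood below 2 CPM in each group mean and passed in neither line, though on log2(TPM + 1) it was called lower in MDA-MB-231 (limma adjusted p = 0.0105), and in A549 it was called higher without replicate 1 of 2D (edgeR adjusted p = 0.0371) or of 3D (edgeR adjusted p = 0.0102).

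**Figure D5:**
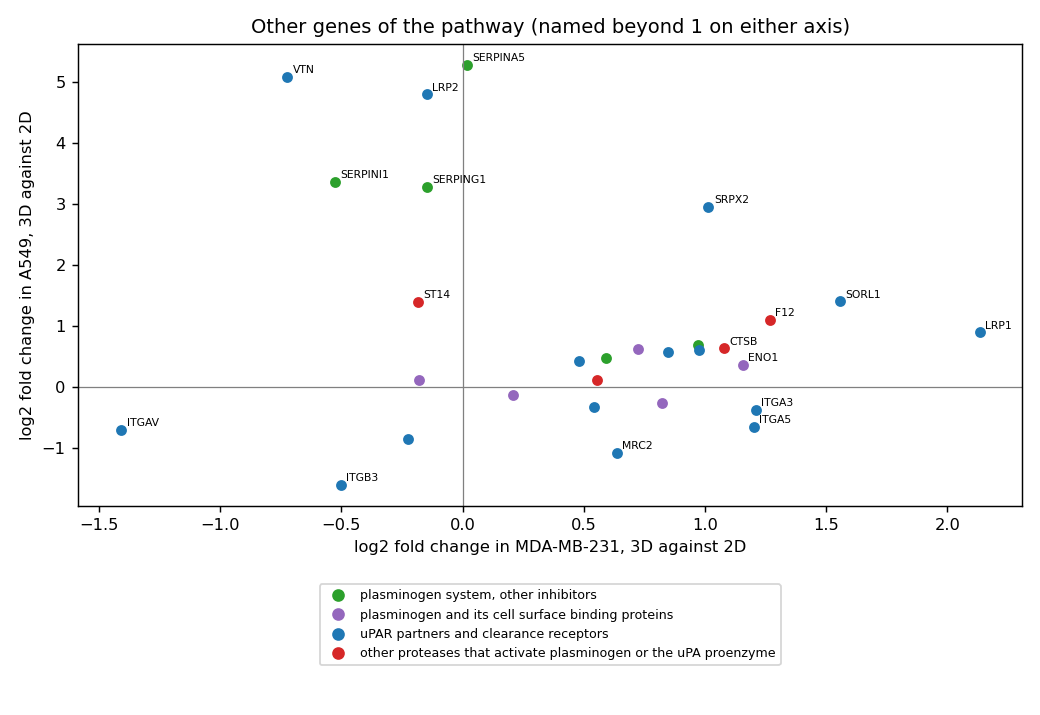
Log2 fold change in 3D against 2D of the 29 tested pathway genes that are not members, with MDA-MB-231 on the horizontal axis, A549 on the vertical axis and colours for the 4 lists. VTN and SERPINA5 stand at the top, at 5.08 and 5.28, the place of VTN on the horizontal axis resting on levels at or near 0.

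Macrophages and other leukocytes also use uPAR and PAI-2, and some of the genes marking them moved with the culture. The summed level of 7 leukocyte markers was 9.07 to 10.7 CPM in A549 2D and 33.2 to 53.8 CPM in A549 3D. In MDA-MB-231 it was 94.7 to 110 CPM in 2D and 241 to 271 CPM in 3D. Their part in the results was not tested. Most of it was CD68 and CD14, and LYZ stood at 0 and 1.10 CPM in A549 and 0.541 and 1.77 CPM in MDA-MB-231. The pan-leukocyte gene PTPRC went the other way in MDA-MB-231, from 0.523 CPM in 2D to 0.0661 CPM in 3D (36 and 3 counts), with 1 count in each A549 group, and CD3E and MS4A1 were at 0 in every group. Fibroblast markers summed to 10.5 to 21.0 CPM with DCN at 0, endothelial markers to 0.281 to 1.38 CPM in A549 and 12.1 to 17.6 CPM in MDA-MB-231, and erythroid markers to at most 0.197 CPM. CDH1, an epithelial marker, went from 13.5 to 65.8 CPM in A549 and from 1.47 to 0.192 CPM in MDA-MB-231. The keratin genes KRT8, KRT18 and KRT19 did not fall with it there, going from 367 to 557, 275 to 423 and 114 to 522 CPM. The list of 6 luminal breast genes that holds CDH1 had 4 tested. In A549 3 were called higher and 0 lower, against 34.1% and 31.5% of all genes. In MDA-MB-231 2 were called higher and 2 lower, against 33.4% and 34.2%.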

How the data were processed

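RNA sequencing was deposited as 1 table per library for 12 libraries. Libraries were stranded total RNA with ribosomal RNA removed, from TRIZOL extracts, per the labels' protocols. The deposited tables hold RSEM expected counts per gene, which split shared reads, for build hg19, per the submitters' processing notes. TPM was deposited beside them by the authors, scaled to transcript length and library total, and so were the isoform-weighted transcript lengths. The aligner, versions and strand setting were not given in the sources used here.

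These counts were rounded to whole numbers, filtered with filterByExpr and scaled with TMM (factors 0.809 to 1.129). All 12 libraries were fitted in 1 model of 4 group means by the quasi-likelihood test of edgeR (version 4.0.16 in R 4.3.3), Benjamini-Hochberg adjusted over 15304 genes, two-sided, threshold 0.05. CPM are TMM-normalised. Likeness used a prior count of 2 and genes whose average log2 CPM reached 3, leaving out structural RNA, antisense, pseudogene and LOC symbols, and took 3 genes per member. Up to 4 tested genes of smallest p were named per list.

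Alternatives were RLE, upper-quartile and total count scaling, DESeq2 1.42.0, limma 3.58.1 on log2(TPM + 1), log2(TPM + 0.1) and TPM rescaled without 2550 structural RNA genes, other filters, voom with quality weights, only the compared groups, a replicate block, structural RNA removed, and each library left out. Total count scaling and rescaled TPM were added after seeing the data. Members and lists were chosen with earlier results of these data known. An inhibitor of the lists is not reported here and stands in no list count. Replicates were not duplicates: their counts differed by 2.71 to 163 times the chi-square per degree of freedom of sampling noise. Promoter windows came from RefSeq on GRCh38.p14 for 4 members, all but PLAT. Columns of other series numbered 0.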

Additional observations from a re-analysis of the deposited data

Results flagged for a closer look

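The change from 2D to 3D differed between the lines, by the edgeR test of the difference itself, for PLAU, PLAUR, PLAT and SERPINE2. The log2 difference (A549 minus MDA-MB-231) was -3.76 for PLAU, -1.37 for PLAUR, -1.88 for PLAT and -0.61 for SERPINE2. For SERPINB2 the adjusted p was 0.0377, from 0 and 2 counts in A549, and no size is given. This call was lost without the filter on low counts (adjusted p = 0.0521) and in 5 of 12 fits without 1 library.

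Of all 29 tested pathway genes that are not members, 8 were called higher and 11 lower in the same test, where 56.1% of all genes were called. The 16 that are named were those of smallest p in each list, and 10 of them differed. The log2 difference was 5.26 for SERPINA5, 3.88 for SERPINI1 and 3.42 for SERPING1, among the inhibitors. With a library left out these ran from 4.55 to 6.17 for SERPINA5 and from 2.89 to 6.03 for SERPING1, which had 2 counts in A549 2D and whose call was lost on log2(TPM + 0.1) (adjusted p = 0.0645). The difference was 0.29 for ANXA2 and -0.80 for ENO1 among the plasminogen-binding proteins, and 5.80 for VTN, 1.94 for SRPX2 and -1.86 for ITGA5 among the uPAR partners. The proteases CTSB and CTSL gave -0.45 each. The difference of ANXA2, with an adjusted p of 0.0364, was lost with the replicate block (0.0612), no filter (0.0911), total count scaling (0.164) and log2(TPM + 1) and log2(TPM + 0.1) (0.351 and 0.377), and in 9 of 12 fits without 1 library (up to 0.129; it held without A549 3D replicates 1 and 2 and MDA-MB-231 3D replicate 2). That of CTSB was lost on rescaled TPM (0.0839). VTN was at or near 0 in MDA-MB-231, and its difference ran from 5.15 to 8.55 with a library left out and had an adjusted p of 0.0758 without MDA-MB-231 2D replicate 3. The difference of CTSL, with an adjusted p of 0.0467, was lost under RLE, upper-quartile and total count scaling (0.0522, 0.0573 and 0.0554), with the replicate block (0.0562), on rescaled TPM (0.184) and without any of 8 libraries (A549 2D replicates 1 to 3, MDA-MB-231 2D replicates 2 and 3 and MDA-MB-231 3D replicates 1 to 3, up to 0.103).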

How the results depend on the processing

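Over the alternatives, 298 of 319 member values kept their side of the threshold and, where called, their direction, as did 175 of 180 with a library left out. The falls of PLAU, PLAT and SERPINE2 in A549, the rise of PLAUR and fall of SERPINB2 in MDA-MB-231, and the differences between the lines of PLAU, PLAUR, PLAT and SERPINE2 passed under every alternative run, as did the differences in level between the lines in 2D of all 5 members and in 3D of all but SERPINE2. Other values moved mostly with scaling, which moved the median of all genes by -0.41, -0.54, -0.27 and -0.14 in A549 and by -0.25, -0.36, -0.22 and -0.23 in MDA-MB-231 (log2(TPM + 1), log2(TPM + 0.1), total count and rescaled TPM, in that order, here and below). PLAUR in A549 became -0.67, -0.70, -0.33 (adjusted p = 0.0313) and -0.30 (adjusted p = 0.0229). In MDA-MB-231, PLAU became 0.067, 0.067, 0.25 and 0.11, PLAT -0.033, -0.033, 0.15 and 0.0068, and SERPINE2 -0.56, -0.58, -0.38 and -0.52, with 1 member higher and 2 lower in each. With voom quality weights SERPINE2 there was -0.21, giving 2 lower, and SERPINB2 in A549 had an adjusted p of 0.0208, giving 1 higher. With no filter the difference for SERPINB2 had an adjusted p of 0.0521 and 0 members were higher. SERPINE2 between the lines in 3D was 0.26 and 0.27 on the TPM scales, with 0 members higher. SERPINB2 did not pass the filter in the A549 libraries fitted alone, so that alternative gave no value. The cause was not tested beyond these scalings.

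Among pathway genes the sign turned in A549 for SERPINB6 (-0.10 and -0.11), ENO1 (-0.22 and -0.22), ANXA2 (-0.47 and -0.47) and CTSL (-0.50 and -0.50) on log2(TPM + 1) and log2(TPM + 0.1). The 3 nearest genes of each member were the same under RLE and upper-quartile scaling.

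Leaving out each library gave adjusted p-values of 0.0347 to 0.129 for the SERPINB2 difference, with 0 to 1 members higher. PLAUR in A549 ranged from -0.23 to 0.06. Of all genes, the TPM scales called 2290 and 2346 higher and 8626 and 8636 lower in A549, against 5222 and 4820. In MDA-MB-231 they called 2532 and 2362 higher, and rescaled TPM 2870, against 5118. Between the lines they called 3181 and 3168 higher and 9487 and 9407 lower in 2D, against 6544 and 5941, and 3543 and 3589 higher and 9560 and 9589 lower in 3D, against 6715 and 5993.

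Same-numbered libraries of the 2 cultures correlated at -0.07 to 0.07 in their deviations from the group means, and different-numbered ones at -0.08 to 0.12. These values show no pairing by number, but with 3 libraries per group they cannot exclude it. With the replicate block PLAU was -3.30 in A549 and 0.49 in MDA-MB-231, and no call of a member changed, while the differences of ANXA2 and CTSL were lost. With 5 to 50 counts of PLAT and 0 to 1 of SERPINB2 per A549 3D library, depth limits what can be said of these genes there.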

Other observations

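The isoform-weighted transcript length that RSEM gave PLAUR was 1508 to 1516 bases in A549 2D, 1520 to 1536 in A549 3D and 1537 to 1541 in MDA-MB-231. The values of A549 2D, A549 3D and MDA-MB-231 did not overlap. That of PLAU was 2378 to 2387 bases in all but 2 libraries of A549 3D, where it was 2393 and 2444 from 136 and 88 counts. In A549 2D, 804 to 839 genes had a TPM at least that of PLAU, in A549 3D 5381 to 7290, and in MDA-MB-231 401 to 445.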
